A study of Mus musculus with 12 samples.

Results

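The macrophages described here are the salt-treated cells kept in ordinary oxygen, the control condition of a study of low oxygen and lactate. They were chosen by their labels alone and are 3 of 12 libraries, all taken from one table of 37620 Ensembl gene rows. In every library the cells were grown from C57BL/6 mouse bone marrow as a primary culture and taken at day 7. The baseline group, normoxia-NaCl, had normal oxygen and 25 mM NaCl. The other 9 libraries, 3 per group, had normoxia with 25 mM sodium lactate (normoxia-lactate), 1% oxygen with 25 mM NaCl (hypoxia-NaCl) or 1% oxygen with 25 mM sodium lactate (hypoxia-lactate). Polyadenylated RNA was sequenced, so the values are transcript levels and not protein at the surface or in the medium. The sources used here do not say whether the 3 libraries came from separate mice or cultures, and the spread between them may be technical.

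Macrophages grown from marrow arise from progenitors under colony-stimulating factor 1, which acts through the receptor Csf1r. They engulf dead cells, microbes and lipoproteins, digest the cargo in lysosomes with cathepsins and lysozyme, and store the iron it releases in ferritin. Pattern receptors for microbial products are kept ready in the resting state, whereas many cytokine genes are transcribed only after a stimulus. The levels below therefore describe the receptors such a cell carries messages for, what it could secrete without a stimulus, and which genes gave no read.

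The 3 libraries held 25328963, 34466929 and 49438500 reads assigned to genes, in the order 1, 2, 3. Levels are on the counts-per-million scale (CPM), relative to the reads assigned to genes, and values are written as mean ± SD over the 3 libraries (n = 3). A gene is called detected at a mean of at least 1 CPM. Levels of different genes are compared only as CPM per kilobase of annotated exon, because a long transcript gives more reads. A gene with 0 reads is limited by 3 counts, which correspond to 0.118, 0.0870 and 0.0607 CPM in libraries 1, 2 and 3. Wilson 95% intervals of the shares of mitochondrially encoded and ribosomal protein genes given below were at most 0.0175 percentage points wide. They cover counting error only, and none was computed for the other shares given. No groups were tested against each other for these levels.

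Of the 37620 gene rows, 12252 were detected. Their reads were spread unevenly: 99 genes at 1000 CPM or more held 29.6% of all reads, and the 1815 genes from 100 to 1000 CPM held 43.0%. A further 6714 genes lay between 10 and 100 CPM and held 25.7%, and 3624 genes from 1 to 10 CPM held 1.59%. At the other end, 18083 rows had 0 reads in all 3 libraries. Among rows annotated as protein-coding, 53.5% were detected and 28.7% had 0 reads throughout.

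The most abundant messages were those of the lysosome, of iron storage and of phagocyte surface and matrix proteins. Lyz2, which encodes the lysozyme that cleaves bacterial cell walls, was at 22032, 33563 and 24267 CPM in libraries 1, 2 and 3, or 26621 ± 6115. Gpnmb, a transmembrane glycoprotein of lysosome-rich cells, was at 20262, 17646 and 26607 CPM. The ferritin heavy chain gene Fth1 was at 24134, 12171 and 13955 CPM, and library 1 held the high value. The light chain gene Ftl1 was at 17113, 11638 and 12778 CPM, again highest in library 1.

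Lysosomal protease genes of the aspartic and cysteine classes followed, high in every library. The aspartic protease gene Ctsd was at 11989, 9945 and 13819 CPM. Cysteine proteases were represented by Ctsb at 8940, 7758 and 9774 CPM and by Ctss, which trims the class II invariant chain, at 8028, 5302 and 5956 CPM. Psap, the precursor of the saposins that help degrade sphingolipids, was at 5052, 5382 and 7524 CPM. The galectin gene Lgals3 was at 7717 ± 1557 CPM, and Mpeg1, the pore-forming perforin-2 of phagocytes, at 2768 ± 419 CPM. The rest of the 25 most abundant included Csf1r, the endocytic receptor Lrp1, the class I gene H2-D1, the lysosomal membrane protein gene Laptm5, 3 mitochondrially encoded genes (mt-Co1, mt-Cytb and mt-Co2), elongation factors Eef1a1 and Eef2, the glycolytic enzyme gene Pkm and the cytoskeletal genes Vim, Tmsb4x and Actb.

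**Figure D1:**
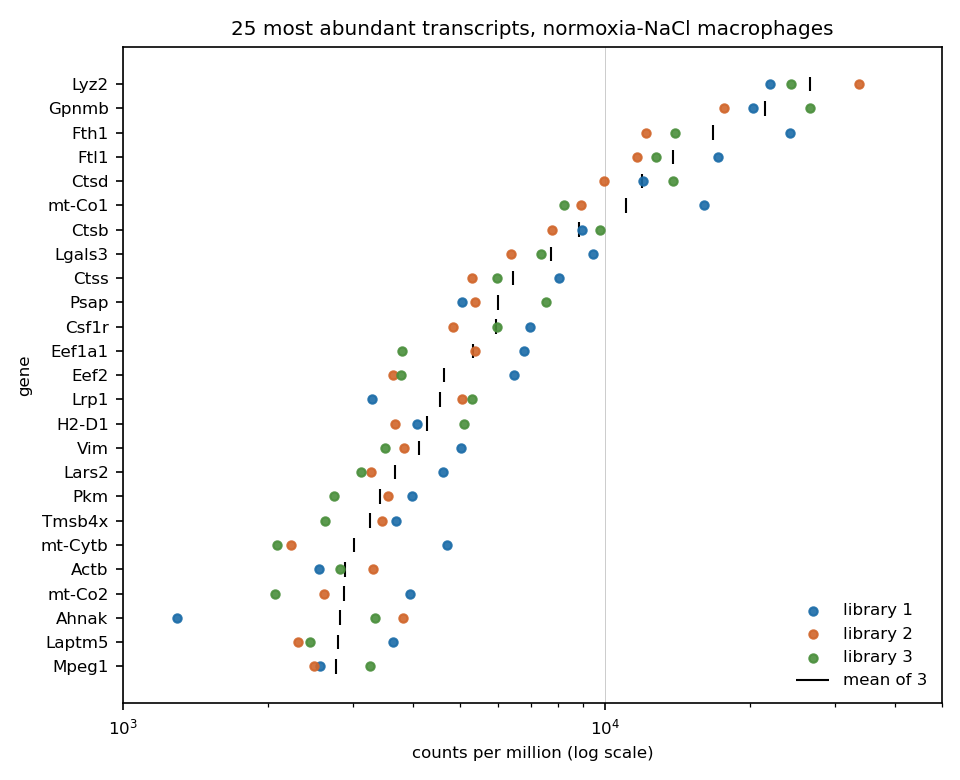
CPM (log axis) of the 25 genes with the highest mean, one row per gene; each point is 1 of the 3 normoxia-NaCl libraries and the black tick is their mean. Lyz2 and Gpnmb lead at means of 26621 and 21505, and library 1 lies highest for Fth1, Ftl1 and mt-Co1 and lowest for Ahnak.

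Per kilobase the order changed, and 14 of the same 25 genes stayed among the 25 highest. Lyz2 remained first at 16742, 25504 and 18440 CPM per kb, and its lowest library lay above the highest library of Ftl1, the next gene. Ftl1 followed at 10331 ± 2156 CPM per kb, then mt-Co1 at 7146 ± 2796. Ctsd, Fth1, Ctss, mt-Co2 and Lgals3 came next with means from 5069 down to 4153 CPM per kb, and their ranges overlapped, so their order is not resolved by 3 libraries. Gpnmb, second by reads, was ninth by mean at 3301 ± 707 CPM per kb, since its annotated exons span 6514 bases. Short transcripts moved up, among them the calcium-binding protein gene S100a4 at 2517 ± 627 and the class I light chain gene B2m at 1535 ± 278 CPM per kb. The pseudogene Ftl2-ps stood at 2746 ± 870 CPM per kb, and since it is a near copy of Ftl1 and other genes here have such copies, how reads were divided between them is uncertain. That also holds for Lyz1 beside Lyz2, Csf2rb2 beside Csf2rb, and H2-K1 beside H2-D1.

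The identity of the cells was checked on 21 macrophage lineage markers, of which 17 were detected, 11 of them at 100 CPM or more. Over all protein-coding genes the share detected was 53.5%. Csf1r was at 6982, 4841 and 5971 CPM. The lysosomal glycoprotein gene Cd68 was at 1502 ± 228 CPM, the NADPH oxidase subunit gene Cybb at 1399 ± 330, and the F4/80 antigen gene Adgre1 at 807 ± 81.1. Itgam, the CD11b integrin chain, was at 787, 1188 and 1148 CPM, lowest in library 1. Per kilobase the signalling adaptor gene Tyrobp, Cd68 and Csf1r lay close together, at 1326, 1195 and 1027 CPM per kb.

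Some markers of tissue-resident macrophages were at or near 0, and others were detected. Timd4, the phosphatidylserine receptor of peritoneal and liver macrophages, and Lyve1, a hyaluronan receptor of perivascular macrophages, had no read in any of the 3 libraries. Cd163, the haemoglobin scavenger receptor, had 15, 16 and 32 reads, or 0.568 ± 0.0939 CPM, and the complement receptor gene Vsig4 had 5, 33 and 17. Marco was at 1.26 ± 0.726 CPM. The mannose receptor gene Mrc1, detected throughout, was at 18.8, 29.2 and 22.6 CPM. Siglec1, of the same list, was at 16.9, 35.2 and 25.0 CPM, and Cd5l, of the scavenger receptor list, at 49.6 ± 17.8.

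Among 25 transcription factor genes of macrophages, 23 were detected. Spi1, encoding PU.1, the factor that specifies the myeloid lineage, was at 491, 459 and 483 CPM, a spread of 17.1 CPM. Irf5 stood at 396 ± 27.1 CPM, Stat6 at 353 ± 18.5, Cebpa at 237 ± 27.1 and Irf8 at 216 ± 20.9. These factors varied little between libraries, whereas Cebpb was at 52.0 CPM in library 1 against 164 and 153 in the others. Gata6, the factor of peritoneal macrophages, had no read, and Spic, the factor of red pulp macrophages, had 9, 4 and 4.

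Most of the lists for 10 other cell types had a median level below 1 CPM. The exceptions were neutrophil markers at 1.19 CPM, fibroblast and stromal markers at 3.54 and osteoclast markers at 16.4. Of 12 T and NK cell markers 4 had no read in any library (33.3%, near the 28.7% of all protein-coding genes). The whole T and NK list summed to 2.91 to 3.99 CPM. The dendritic cell list of 10 summed to 2.14 to 5.48 CPM, with Xcr1 at 0 and Flt3 at 0.158, 1.83 and 0.222 CPM. Of 9 B and plasma cell markers, which summed to 23.8 to 30.1 CPM, Ms4a1 and Pax5 were at 0, and Ighm at 20.2 ± 0.539 CPM held most of the sum. The 11 mast cell, basophil and eosinophil markers summed to 20.5 to 42.7 CPM, most of it Siglecf. The 10 erythroid and megakaryocyte markers summed to 17.4 to 63.8 CPM, mostly Itga2b, Pf4 and Ppbp, with Alas2 at 0.

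In some lists with larger sums a single gene held most of the reads. In the endothelial list, which summed to 158 to 243 CPM, Vwf was at 146, 142 and 227 CPM while Tek, Cldn5 and Emcn had no read. The 14 epithelial, hepatocyte, muscle and neural markers summed to 205 to 249 CPM, nearly all from Mbp at 220 ± 23.3 CPM, with Krt8 and Alb at 0. Fibroblast and stromal markers summed to 77.6 to 157 CPM, and 6 of 10 were detected, against 53.5% of all protein-coding genes. Acta2 was at 65.2, 30.1 and 29.4 CPM, Col1a1 at 28.3 ± 11.4 and Col1a2 at 27.1 ± 9.95. Pdgfrb, Postn and Col3a1 were at 4.31 ± 0.0931, 4.14 ± 0.698 and 2.94 ± 0.804 CPM. Dcn was at 0.191 ± 0.0788 CPM, and Lum had 1 read in library 3. The 10 osteoclast markers summed to 333 to 570 CPM, and 8 of them (80.0%) were detected. The proton pump subunit gene Atp6v0d2 was at 195 ± 96.6 CPM, the transcription factor gene Nfatc1 at 99.0 ± 15.2, the collagenolytic cathepsin gene Ctsk at 70.5 ± 18.7, Acp5, encoding tartrate-resistant acid phosphatase, at 35.4 ± 9.92 and the fusion gene Dcstamp at 15.4 ± 6.54, while Calcr was at 0. The 14 neutrophil markers summed to 148, 260 and 157 CPM, led by Mmp8 at 96.8 ± 37.0 CPM and Csf3r at 68.9 ± 14.5. Of the neutrophil markers 8 were detected (57.1%, near the 53.5% of all protein-coding genes), and 4 without library 2. Whether a small share of other cells contributed to these reads was not tested, and in bulk RNA fewer cells of a type and less RNA per cell cannot be told apart.

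Promoter sequence was examined because it was independent of the counts. The stretches that follow are examples from abundant and from silent genes. Each is the 150 bases before the RefSeq transcription start in GRCm38.p6, 5′ to 3′ on the strand of the gene, with every CpG dinucleotide in capitals. Lyz2 lies at chr10:117282273-117282422 (minus strand), Mpeg1 at chr19:12460620-12460769 (plus), Ctsd at chr7:142387828-142387977 (minus), Tmsb4x at chrX:167209219-167209368 (minus), Il6 at chr5:30012964-30013113 (plus) and Retnla at chr16:48842459-48842608 (plus). The first 4 genes were among the 25 most abundant, and Il6 and Retnla had no read.
Lyz2: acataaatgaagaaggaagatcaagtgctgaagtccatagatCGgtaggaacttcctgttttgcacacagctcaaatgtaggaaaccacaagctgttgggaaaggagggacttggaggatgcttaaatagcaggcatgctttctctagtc
Mpeg1: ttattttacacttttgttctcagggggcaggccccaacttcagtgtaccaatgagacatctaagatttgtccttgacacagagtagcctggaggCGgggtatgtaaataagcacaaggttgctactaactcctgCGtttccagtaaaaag
Ctsd: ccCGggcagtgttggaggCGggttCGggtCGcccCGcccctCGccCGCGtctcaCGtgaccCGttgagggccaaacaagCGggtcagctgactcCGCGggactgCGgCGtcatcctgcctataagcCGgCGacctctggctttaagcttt
Tmsb4x: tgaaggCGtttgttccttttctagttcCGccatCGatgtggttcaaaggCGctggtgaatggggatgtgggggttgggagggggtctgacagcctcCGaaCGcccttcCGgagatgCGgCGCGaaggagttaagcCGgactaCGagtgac
Il6: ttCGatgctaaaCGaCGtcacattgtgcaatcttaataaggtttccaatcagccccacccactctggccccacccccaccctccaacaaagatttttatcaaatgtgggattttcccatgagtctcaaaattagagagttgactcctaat
Retnla: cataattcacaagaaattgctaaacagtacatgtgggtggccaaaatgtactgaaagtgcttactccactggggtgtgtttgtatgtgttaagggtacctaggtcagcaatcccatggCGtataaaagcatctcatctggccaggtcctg

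The abundant genes shown lay toward the 2 ends of the CpG range. Lyz2 held 1 CpG and Mpeg1 2, and over the 300 bases from 250 before to 50 after the start their CpG observed-to-expected ratios were 0.0680 and 0.176. Ctsd held 17 CpGs and Tmsb4x 12, with ratios of 0.972 and 0.988. Other abundant genes were intermediate, such as Gpnmb at 0.592, Lgals3 at 0.563 and Vim at 0.421. The quartiles of the 55 genes at 1000 CPM or more with a single RefSeq start were 0.351 and 0.696. The silent genes Il6, with 3 CpGs and a ratio of 0.214, and Retnla, with 1 and 0.134, were as CpG-poor as Lyz2 and Mpeg1. Retnla has the TATA box letters TATAAA 30 bases before its start. Ctsd has the 8 letters TCACGTGA, a palindrome that reads alike on both strands and forms the core of the CLEAR element of lysosomal genes, 99 bases before its start.

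Across 12929 protein-coding genes with a single RefSeq start, CpG content was greater at higher levels and lower again at the top. The median ratio was 0.201 for the 3959 genes with no read, 0.469 under 1 CPM, 0.717 from 1 to 10 CPM and 0.816 from 10 to 100 CPM. It was 0.808 for the 1079 genes from 100 to 1000 CPM and 0.591 for the 55 genes at 1000 CPM or more. These were 1079 of 1752 and 55 of 95 protein-coding genes at those levels, so the median at the top leaves many abundant genes out. A ratio under 0.3 was found in 65.2% of silent genes, in 5.17% of those from 10 to 100 CPM, and in 11 of 55 at 1000 CPM or more. The letters TATAAA on the strand of the gene, starting 45 to 15 bases before the start, were present in 6.97% of silent genes, 0.689% of genes from 10 to 100 CPM and 9.09% (5 genes) at the top, against 3.29% of all. These are descriptions across genes, which are not independent, and gene families with many copies fall in the silent class.

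**Figure D2:**
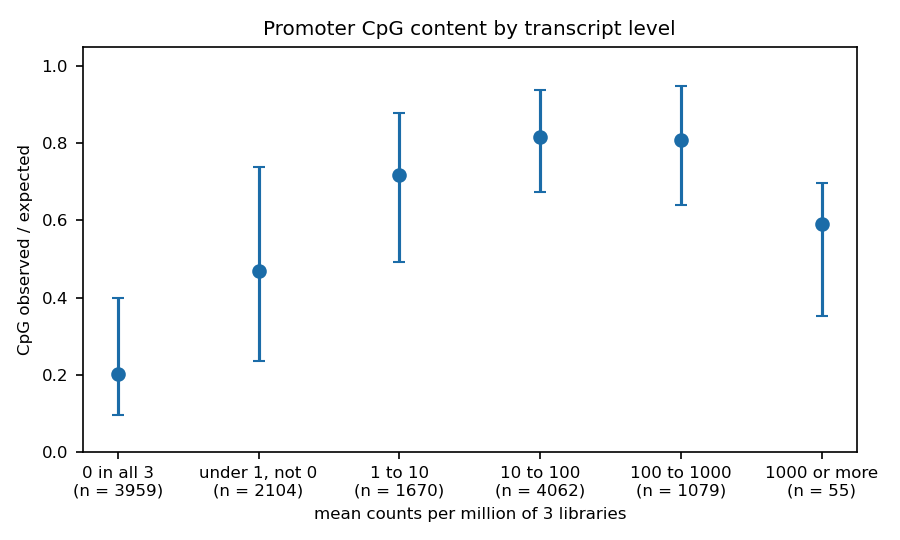
CpG observed-to-expected ratio of the 300-base promoter window for protein-coding genes with a single RefSeq start, grouped by mean CPM in the 3 normoxia-NaCl libraries. Points are medians, bars run from the first to the third quartile, and n is the number of genes. The median is 0.201 in silent genes, 0.816 at 10 to 100 CPM and 0.591 in the 55 genes at 1000 CPM or more.

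By gene group, the promoters of macrophage lineage markers were CpG-poor: 12 of 14 with a single start had a ratio under 0.3, against 29.4% of all 12929. Siglec and paired inhibitory receptors (15 of 19) and C-type lectin receptors (12 of 15) were alike in this, whereas 1 of 17 promoters of guidance, Notch, Wnt and Hedgehog receptors was. The same held for marker lists of other cell types, with 10 of 13 neutrophil, 8 of 9 erythroid and megakaryocyte, 6 of 6 mast cell, basophil and eosinophil and 5 of 7 T and NK cell markers under 0.3. The core bound by PU.1, GAGGAA on either strand anywhere in the 300 bases, was present in 27.0% of all promoters. It was present in 8 of 14 lineage marker promoters, 15 of 19 of the Siglec group, 10 of 15 C-type lectin receptors and 113 of 246 surface genes, and in 72 of 217 secreted genes. It was found at like shares in neutrophil markers (9 of 13), T and NK cell markers (5 of 7) and the guidance receptor group (10 of 17). Over level bands it ranged from 25.9% to 28.2% below 1000 CPM and was 40.0% (22 of 55) above. TCACGTGA was in 2 of 22 lysosomal promoters and in 1.32% of all. By level it was in 0.227% of silent genes, 3.61% from 100 to 1000 CPM and 3.64% above, and the elongation factor gene Eef2 also had it. A letter match does not show that the factor is bound.

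Surface receptors were surveyed in 16 lists of 376 genes, 374 of which had a row. Of these, 275 (73.5%) were detected, 104 reached 100 CPM and 26 (6.95%) had no read. Together they took 8.47%, 8.18% and 10.1% of the reads. The lists were drawn up with macrophages in mind, so a higher share than the 53.5% of all protein-coding genes is no result about surface genes.

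Among growth factor receptors, 22 of 26 were detected. Csf1r led at 1027 CPM per kb. Csf2rb2, the beta chain specific to interleukin 3, came next at 242 CPM per kb, followed by the subunits for granulocyte-macrophage colony-stimulating factor, the common chain Csf2rb at 206 and the ligand-specific chain Csf2ra at 128 CPM per kb. Csf2ra was at 251, 389 and 461 CPM, lowest in library 1. The vascular endothelial growth factor and semaphorin co-receptors Nrp1 and Nrp2 were at 338 ± 16.0 and 451 ± 96.7 CPM. The stem cell factor receptor Kit had 6, 11 and 15 reads and Pdgfra 8, 21 and 5, all below the level called detected.

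Of 13 Fc receptor and adaptor genes, 3 reached 100 CPM. The adaptors Tyrobp (942, 812 and 900 CPM) and Fcer1g (979, 896 and 788 CPM), which carry the activating motif for receptors without one, and the low-affinity IgG receptor Fcgr3 (860, 706 and 665 CPM) were each highest in library 1. Per kilobase they stood at 1326, 1015 and 428 CPM per kb. The inhibitory receptor Fcgr2b was at 49.8 ± 16.4 CPM, the high-affinity receptor Fcgr1 at 21.7 ± 3.17 and Fcgr4 at 20.9 ± 1.61. Fcer1a and Fcer2a, the IgE receptors of mast cells and B cells, and Fcamr and Pigr, for IgM and polymeric immunoglobulin, had no read.

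Toll-like receptors were detected broadly, with 14 of 17 genes of the list at 1 CPM or more. Tlr13, the sensor of bacterial ribosomal RNA, was at 262, 260 and 277 CPM, and Tlr7, for single-stranded RNA, at 179, 222 and 198 CPM. Tlr2 stood at 142 ± 22.1, Tlr8 at 98.1 ± 11.1 and Tlr9 at 23.4 ± 5.97 CPM, and Tlr4, for lipopolysaccharide, was at 78.8, 95.9 and 72.8 CPM. The chaperone Unc93b1, which moves the nucleic acid sensors to endosomes, was at 925 ± 169 CPM and the lipopolysaccharide co-receptor Cd14 at 653 ± 111. Tlr11 and Tlr12 had at most 2 reads in a library, and Tlr5, for flagellin, had 0, 47 and 2, so nearly all its reads came from library 2.

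Of 21 C-type lectin receptors 16 were detected, and Clec4d, which pairs with Mincle to sense mycobacterial glycolipid, was the highest per kilobase at 478 CPM per kb. It was at 858, 812 and 622 CPM. Dectin-1 (Clec7a), the beta-glucan receptor, was at 232, 97.1 and 267 CPM, low in library 2. Mincle itself, Clec4e, was at 51.8 ± 19.0 CPM. Cd209d and Cd209f had no read.

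Scavenger and lipoprotein receptors showed a divide, with 10 of 21 at 100 CPM or more and 8 undetected. Lrp1, which takes up many ligands including apolipoprotein E remnants, was at 3290, 5037 and 5294 CPM, lowest in library 1. Cd36 stood at 282 ± 16.5 CPM, Msr1 at 157 ± 36.8 and Scarb1 at 139 ± 29.4. Stab1 was at 343 ± 113 CPM while its relative Stab2 had 0, 10 and 5 reads, and Scara5 had none.

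Receptors that sense dying cells and lipids were led by Gpnmb, and by Sirpa, the receptor of the CD47 signal that restrains engulfment, at 1661, 2217 and 2654 CPM. Trem2, a lipid receptor that signals through Tyrobp, was at 1042, 1105 and 1383 CPM. Of the TAM receptors for phosphatidylserine bridges, Axl was at 169, 65.1 and 127 CPM, Mertk at 29.4, 26.2 and 32.0 CPM, and Tyro3 had 9, 13 and 8 reads. Of their bridging ligands, Gas6 was at 140 ± 21.6 CPM and Pros1 at 26.7 ± 6.44, and both were detected, as were 2 of the 3 receptors. Havcr1 had no read.

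Integrin and adhesion genes were detected in 23 of 27 cases, 16 of them at 100 CPM or more. The leukocyte beta chain Itgb2 was at 1960 ± 275 CPM and its partners Itgam, Itgal and Itgax at 1041 ± 221, 715 ± 102 and 271 ± 145. The large SD of Itgax came from library 2, at 117 CPM against 291 and 405. The adhesion receptor gene Vcam1 had 8, 24 and 6 reads.

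Complement and peptide receptors were detected in 12 of 18 cases. The anaphylatoxin receptor C3ar1 was at 574, 781 and 657 CPM, and C5ar1 at 104, 378 and 321 CPM, low in library 1. The B cell complement receptor Cr2 and the formyl peptide receptor Fpr3 were at 0.

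Chemokine receptors had the lowest share detected of the surface lists, 10 of 24 (41.7%), against 53.5% of all protein-coding genes. Of the 24, 1 was at 100 CPM or more and 7 (29.2%) had no read, near the 28.7% of all protein-coding genes. Cxcr4, the receptor for Cxcl12, was at 198, 489 and 439 CPM, and at 208 CPM per kb stood well above the next, Cx3cr1, at 16.2 CPM per kb. Cx3cr1 was at 73.1 ± 22.2 CPM, the monocyte receptor Ccr2 at 25.7 ± 13.2 and Ccr1 at 24.5 ± 8.37. Ccr4, Ccr6, Ccr8, Cxcr1, Cxcr6, Xcr1 and Ackr2, which mark mainly lymphocytes, neutrophils, dendritic cells and endothelium, had no read in any of the 3 libraries.

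Cytokine receptors were present at moderate levels, 23 of 33 detected and none at 1000 CPM. The interferon gamma receptor chains Ifngr1 and Ifngr2 (128 ± 36.6 and 147 ± 31.6 CPM), the type I interferon receptor chains Ifnar1 and Ifnar2 (127 ± 46.1 and 117 ± 9.60) and the interleukin 10 chains Il10ra and Il10rb (211 ± 43.1 and 194 ± 8.61) were all above 100 CPM, as was Il4ra at 129 ± 10.2. Il7r, best known from lymphocytes, was at 309, 220 and 406 CPM and was the highest of the list per kilobase, at 66.9 CPM per kb. Il13ra2 and Il31ra had no read. In the tumour necrosis factor receptor family, 12 of 17 were detected, with Tnfrsf1b at 1199 ± 138 and Tnfrsf1a at 236 ± 6.77 CPM, Cd40 at 1.08 ± 0.605 and Cd27 at 0.

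Antigen presentation genes separated class I from class II. The class I genes H2-D1 and H2-K1 were at 4279 ± 734 and 1469 ± 218 CPM and B2m at 1320 ± 239, and all 3 had a smaller relative spread than the class II genes. The class II invariant chain Cd74 was at 3212, 694 and 2589 CPM, H2-Ab1 at 443, 136 and 504, H2-Aa at 419, 113 and 453, and H2-Eb1 at 217, 70.8 and 295. Library 2 was the lowest for all 4. Co-stimulatory ligands were low, with Cd80 at 4.08 ± 1.37 and Cd86 at 2.82 ± 0.915 CPM. The checkpoint ligand gene Cd274, encoding PD-L1, was at 45.1 ± 11.7 CPM, Vsir, encoding VISTA, at 788 ± 129, and Cd70 and Vtcn1 at 0.

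Inhibitory and paired receptors were detected in 20 of 23 cases and none was without reads. Cd72 was at 573 ± 163, Cd84 at 462 ± 22.9 and Pirb at 451 ± 85.9 CPM. Of G protein-coupled receptors, 31 of 47 were detected, the pyrimidine nucleotide receptor P2ry6 at 214 ± 20.7, the platelet-activating factor receptor Ptafr at 198 ± 89.4 and the sphingosine receptor S1pr2 at 140 ± 16.0 CPM. The lactate receptor Hcar1 had 0, 1 and 0 reads. Gpr132, a proton- and lactate-sensing receptor of macrophages, was at 38.1, 43.3 and 45.3 CPM. The lactate transporters Slc16a1 and Slc16a3 were at 14.8 ± 2.86 and 85.8 ± 9.71 CPM, and per kilobase the exporter Slc16a3, at 16.1, exceeded Slc16a1, at 3.34 CPM per kb. The mechanosensitive channel Piezo1 (572 ± 124 CPM) and the phagosomal metal transporter Slc11a1 (463, 431 and 374 CPM) were detected in every library, and of guidance receptors the plexins Plxnb2, Plxna1 and Plxnd1 were at 1245 ± 131, 890 ± 336 and 653 ± 109 CPM.

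**Figure D3:**
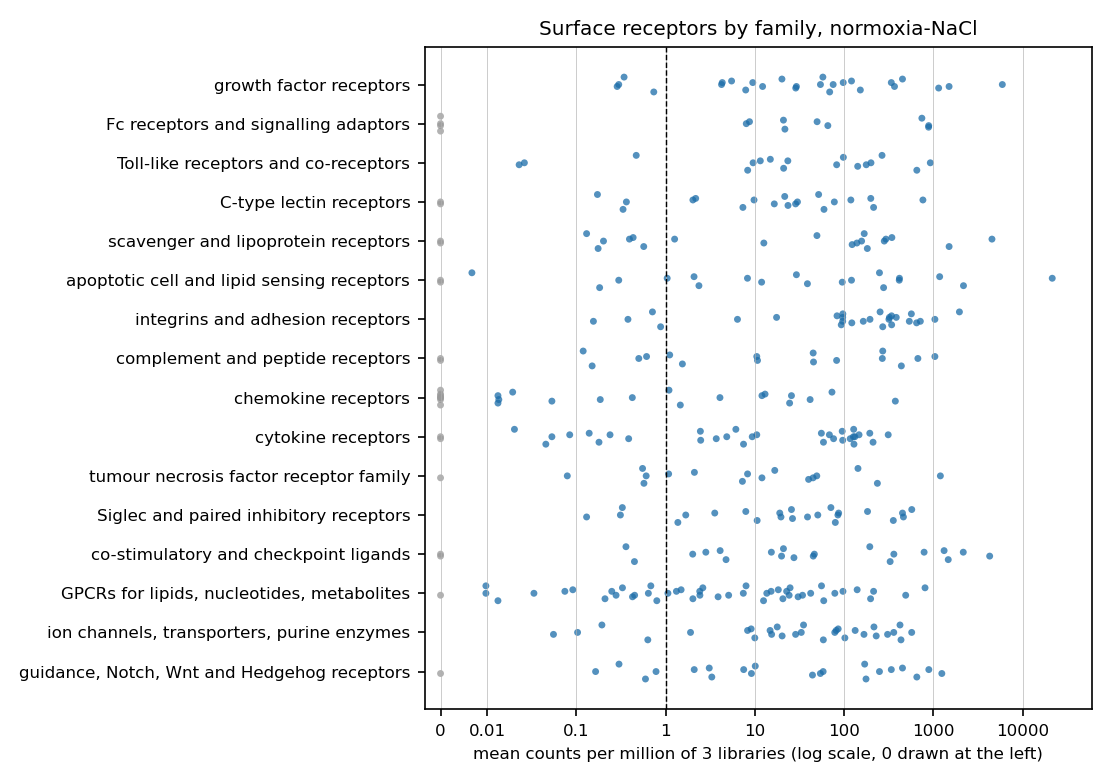
Mean CPM (log axis) of every gene of the 16 surface receptor lists, one row per list and one point per gene; grey points at the left are genes with 0 reads in all 3 normoxia-NaCl libraries and the dashed line marks 1 CPM. Chemokine receptors have 7 of 24 genes at 0 (29.2%, near the 28.7% of all protein-coding genes), while no integrin gene is at 0.

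Secreted factors were surveyed in 13 lists of 350 genes, 347 of which had a row. Of these, 191 (55.0%) were detected and 64 (18.4%) had no read, against 53.5% and 28.7% of all protein-coding genes. Together they took 16.1%, 14.3% and 14.6% of the reads, of which lysozymes, lysosomal proteases and hydrolases held 7.64%, 7.97% and 8.02%. The ferritin chains, on the list of metal-binding proteins, and Vim, on the matrix list, act mainly inside cells. The lists also hold lysosomal membrane proteins such as Laptm5 and Lamp1 and the lipid droplet coat gene Plin2. These shares of reads are therefore not those of secreted factors alone.

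Degradative enzymes and their inhibitors made up the largest share. Of 32 lysosomal genes 31 were detected and 13 reached 1000 CPM. The lysosomal membrane protein gene Lamp1 was at 2228, 2219 and 2213 CPM, and the acid lipase gene Lipa at 2645, 1779 and 1803 CPM. Cystatin C, Cst3, the secreted cathepsin inhibitor, was at 2427, 1578 and 1352 CPM, and Cstb at 450 ± 93.9. Of matrix proteases, 14 of 24 were detected. The macrophage elastase Mmp12 was at 1189, 1089 and 1999 CPM, highest in library 3. Adam8 stood at 829 ± 230, Adam15 at 464 ± 18.8 and the shedding enzyme Adam17 at 229 ± 57.9 CPM. Mmp9 was at 2.27 ± 1.25 CPM and Mmp14 at 17.2 ± 3.98, and Mmp7 and Adamdec1 had no read.

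Of chemokine genes, 9 of 18 in the CC family and 10 of 16 in the other families were detected, shares near the 53.5% of all protein-coding genes. Ccl9 was at 549, 680 and 588 CPM, and Ccl6 at 108, 43.0 and 158 CPM, low in library 2. The inflammatory chemokines Ccl3 and Ccl4 were at 24.3 ± 6.23 and 8.88 ± 2.27 CPM, and the monocyte attractant Ccl2 at 1.29 ± 0.973. Cxcl16, a transmembrane chemokine that can be shed, was at 294 ± 17.4 CPM. Ccl1, Ccl8, Ccl11, Ccl12, Ccl17, Ccl19 and Ccl20, and Cxcl9, Cxcl11, Cxcl13, Cxcl15 and Xcl1, had no read.

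Interleukins, interferons and tumour necrosis factor ligands had the lowest shares detected of the secreted families. Among interleukins 7 of 33 were detected, none reached 100 CPM and 13 had no read. Ebi3, a subunit of interleukins 27 and 35, was at 71.3, 49.6 and 54.3 CPM, Il16 at 29.9 ± 3.86, Il15 at 16.5 ± 5.52 and the receptor antagonist Il1rn at 14.1 ± 2.88. Il1b had 18, 31 and 32 reads, or 0.752 ± 0.131 CPM. Il10 had 0, 6 and 9 reads, Il12b 0, 3 and 0, and Il6, Il23a and Il33 had none. Of interferons and tumour necrosis factor ligands, 4 of 20 were detected. Tnf was at 9.83, 23.3 and 17.0 CPM and Ifnb1, Ifna2, Ifna4 and Ifng had no read.

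Of growth and angiogenic factor genes, 22 of 48 (45.8%) were detected, against 53.5% of all protein-coding genes. Progranulin, Grn, was at 2691, 2629 and 2752 CPM and Igf1 at 409, 410 and 488, each within a narrow range. Pdgfb was at 129, 141 and 182 CPM, highest in library 3. Tgfb1 was at 682, 360 and 401 CPM, high in library 1. Vegfa, the endothelial growth factor, was at 32.7, 59.8 and 58.4 CPM. Csf2, Areg, Tgfa and Igf2 had no read, and Csf3 had 1 read in library 3.

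Complement genes were detected in 9 of 28 cases. The C1q chains C1qb and C1qc were at 484 ± 131 and 338 ± 90.1 CPM, and C1qa at 54.5 ± 17.9. Each chain was lowest in library 2, with C1qb at 523, 337 and 591 CPM. C3 was at 78.9 ± 29.3 and properdin, Cfp, at 102 ± 27.6 CPM, while C6, C8a, Cfi and Mbl1 were at 0. Of 20 coagulation genes 14 were detected, with F10 at 63.5, 36.8 and 57.5 CPM, thrombospondin Thbs1 at 61.0 ± 10.1 and plasminogen activator Plau at 5.25, 38.4 and 17.8 CPM, highest in library 2. Of lipid carriers and their enzymes, Apoe was at 1177 ± 282, the lipoprotein-associated phospholipase gene Pla2g7 at 933 ± 136, the lipid droplet coat gene Plin2 at 977 ± 26.5 and the lipoprotein lipase gene Lpl at 1026 ± 72.2 CPM. Per kilobase these 4 were at 550, 321, 278 and 97.9 CPM per kb. In the matrix list, Tgfbi was at 989 ± 247 CPM and osteopontin, Spp1, at 666, 1381 and 633 CPM, again highest in library 2.

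**Figure D4:**
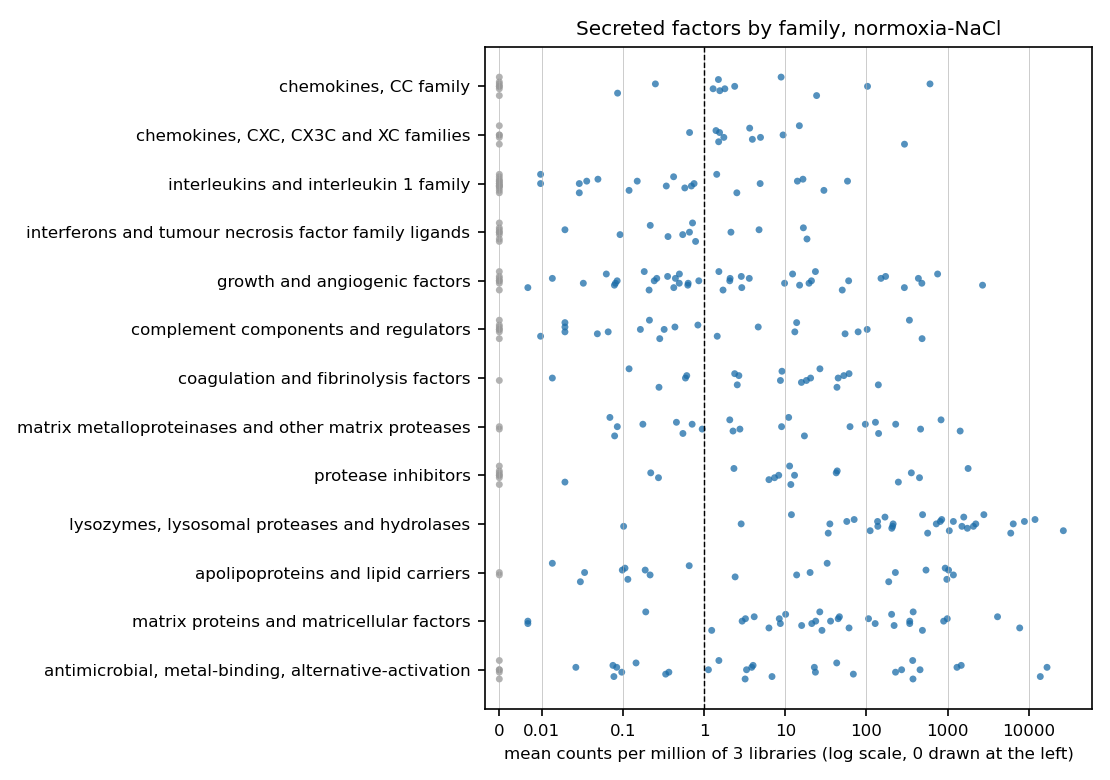
Mean CPM (log axis) of every gene of the 13 secreted factor lists, one row per list and one point per gene; grey points at the left are genes with 0 reads in all 3 normoxia-NaCl libraries and the dashed line marks 1 CPM. Of 33 interleukin genes 26 lie at 0 or below 1 CPM, while 25 of 32 lysosomal genes lie at 100 CPM or more.

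Activation marker genes of both programmes were detected about as often as protein-coding genes at large. Of 16 pro-inflammatory genes 9 (56.2%, against 53.5% of all) were detected, and none reached 100 CPM. Acod1, which makes itaconate, was highest by reads at 26.4 ± 2.44 CPM. Nos2 had 0, 8 and 0 reads, and Il6, Ido1 and Cxcl9 none. Of 16 alternative activation genes 9 were also detected, with Tgm2 at 170, 165 and 153 CPM, Klf4 at 60.7 ± 11.2 and Egr2 at 54.7 ± 23.4. Arg1, Retnla and Ccl17 had no read, and Chil3 was at 0.0395, 4.21 and 0.324 CPM, nearly all from library 2.

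Silent genes comprised 18083 rows with 0 reads in all 3 libraries, among them 5796 protein-coding, or 28.7% of protein-coding rows. Large families with a sensory or epithelial role made up part of them. Of 853 olfactory receptor genes 841 had no read, as did 191 of 191 vomeronasal receptors, 34 of 35 bitter taste receptors, 40 of 41 beta-defensins and 52 of 52 keratin-associated proteins. The exceptions were low, with Olfr111 at 0.474, 0.986 and 2.81 CPM and Olfr110 at 1.04 ± 0.960. Of 49 keratins 41 had no read, and Krt80 was detected at 7.86 ± 2.26 CPM. Hox genes, which carry a positional and haematopoietic programme, had no read in 11 of 38 cases, near the share of all protein-coding genes. Hoxb4 was at 8.12 ± 1.17 CPM.

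The silence of these genes extended to the rest of the series. Of the 18083 rows, 15764 had no read in any of the 12 libraries, and 68 reached 10 reads in any of the other 9. None reached 10 reads in every library of another group. The largest single values were Cltrn, with 49 reads in hypoxia-lactate 3, Hpca, with 46 in hypoxia-lactate 1, and the mitochondrial protein gene Ndufa4l2, with 21, 5 and 11 reads in hypoxia-NaCl and 1, 35 and 12 in hypoxia-lactate. Arg1 had 8, 1 and 19 reads in hypoxia-NaCl, 0, 31 and 2 in hypoxia-lactate and 0, 2 and 0 in normoxia-lactate.

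The 3 libraries were alike for most genes, and 2 of them stood apart in different ways. Of 1914 genes at 100 CPM or more, 65.3% had a highest library less than 1.5 times the lowest, and 215 (11.2%) reached 2 times. The rank correlation over detected genes was 0.985 between libraries 2 and 3 and 0.962 and 0.964 between library 1 and these, which is across genes and descriptive. The common biological coefficient of variation estimated with edgeR was 27.4%, and 19.4% without library 1.

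Library 1 had more reads from ribosomal protein and mitochondrial genes and fewer from nuclear RNAs than libraries 2 and 3. Mitochondrially encoded genes took 4.75%, 2.31% and 2.04% of reads in libraries 1, 2 and 3, and ribosomal protein genes 5.33%, 2.70% and 2.28%. Among the 1914 genes at 100 CPM or more, 46 were at least 2-fold above both other libraries in library 1, 33 of them ribosomal protein genes, and 60 were at least 2-fold below both. The mitochondrial ribosomal RNA mt-Rnr2 was at 2863, 313 and 378 CPM and the ribosomal protein gene Rpl41 at 1559, 404 and 329. The nuclear noncoding RNA Neat1 was at 54.0, 225 and 546 CPM, Malat1 at 1355, 2841 and 2219, and the splicing-related genes Rsrp1 and Srsf5 at 78.2, 503 and 578 and at 46.2, 216 and 231. A list of 10 nuclear-retained RNAs and splicing-factor genes, drawn up after values had been seen, summed to 1831, 4908 and 4701 CPM. All 3 sums lay below the 5242 to 9861 CPM of the other 9 libraries, so a low sum was not particular to library 1. Malat1 was also below its range there, 3497 to 7169 CPM, in all 3. Rsrp1 in libraries 2 and 3 lay within its range there, 386 to 835 CPM. The part of these RNA classes in the other differences of library 1 was not tested.

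Library 2 stood apart in fewer genes. Of the 1914, 13 genes were at least 2-fold below both others there and 4 at least 2-fold above. The genes that follow were picked after their values were seen. Cd74 and the class II chains were low, as were Mfge8, a phosphatidylserine-binding bridging protein, at 973, 257 and 1118 CPM, and Mamdc2 at 128, 35.5 and 168 CPM. The proteoglycan gene Vcan was high, at 66.4, 204 and 47.0 CPM. The neutrophil granule genes S100a9 (0.513, 19.8 and 0.263 CPM), Ngp (0.276, 12.7 and 0.142) and Ltf (0.0395, 11.9 and 0.0809) had almost all their reads in library 2, though Ly6g had 0, 0 and 1. Csf3r (59.2, 62.0 and 85.6 CPM) and Cxcr2 (1.07, 0.870 and 1.33), of the same list, were highest in library 3. The rest of the 14 neutrophil markers were highest in library 2, Mpo by little (1.66, 1.94 and 0.243 CPM). The 24 genes of DNA replication and mitosis, listed after values had been seen, summed to 1078, 1832 and 960 CPM, with Mki67 at 205, 317 and 170. Dendritic cell markers summed to at most 5.48 CPM, in library 2, where the class II genes were lowest. The part of these other cells in the result was not tested.

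**Figure D5:**
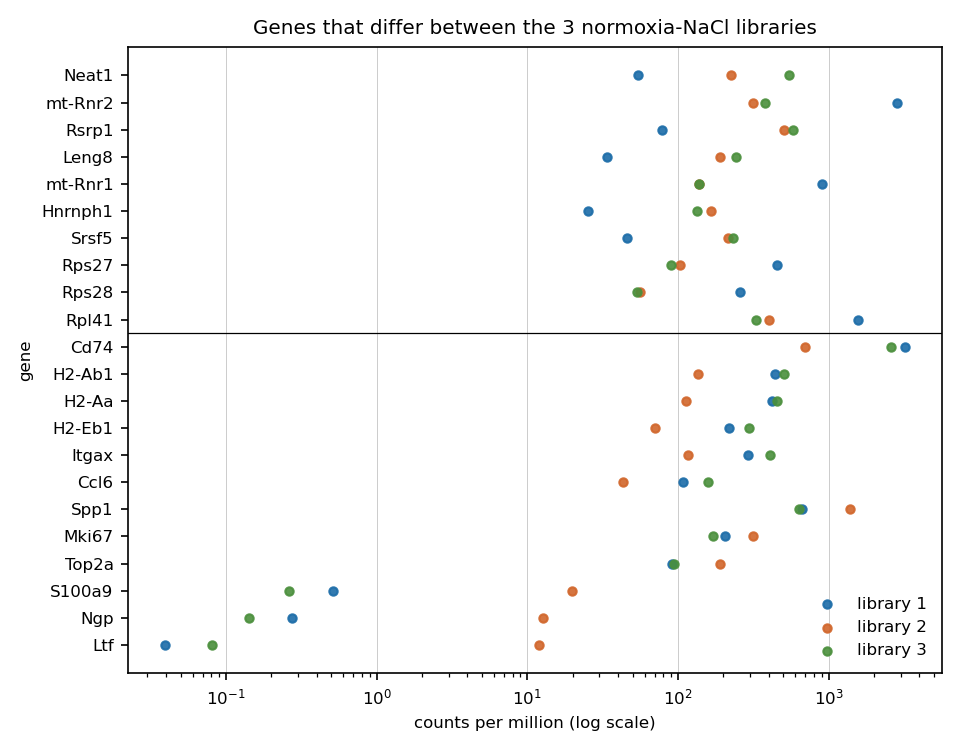
CPM (log axis) in each of the 3 normoxia-NaCl libraries. Above the line are the 10 genes with the largest ratio of highest to lowest library among those at 100 CPM or more, all with library 1 as the extreme; below it are genes chosen after their values were seen because library 2 is low (class II genes, Itgax, Ccl6) or high (Spp1, Mki67, Top2a, S100a9, Ngp, Ltf).

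The baseline was last set beside the other 9 libraries, as a description of where its levels lay outside their range. Of 12391 genes at a mean of at least 1 CPM over all 12 libraries, 1.87% had all 3 baseline libraries above all 9 others and 0.767% had them below. With scaling by the TMM method, which adjusts for a few abundant genes, the counts changed from 232 above and 95 below to 189 and 145, and without library hypoxia-lactate 3 to 305 and 166. Among surface genes 9 of 274 (3.28%) lay above and 4 (1.46%) below, and among secreted genes 4 of 192 (2.08%) above and 2 (1.04%) below. With TMM scaling these were 7 and 5 surface genes and 4 and 4 secreted genes, and without hypoxia-lactate 3 they were 11 and 7 and 4 and 5. These are few genes, and whether the lists differ from all genes was not tested.

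Surface genes above the others included Mrc1, whose 18.8, 29.2 and 22.6 CPM compared with 0.925 to 14.2 elsewhere, and Tyrobp, at 812 to 942 CPM against 261 to 746. Lgals9, a ligand of the checkpoint receptor TIM-3, was at 39.4, 60.8 and 38.9 CPM against 5.33 to 33.2, and Cd33 at 14.4, 23.6 and 19.2 against 2.16 to 11.8. Below the others lay Cd14, at 761, 657 and 540 CPM against 1028 to 2001, Cd72, at 385, 652 and 682 against 754 to 1501, and the glucose transporter Slc2a1, at 68.3, 85.3 and 82.3 against 86.0 to 393. Of secreted genes, Lgals3bp was above (317 to 354 CPM against 91.8 to 311), and the proteoglycan core gene Srgn (125 to 130 against 168 to 278) and Il1b (0.647 to 0.899 against 1.42 to 7.52) were below. Each of these genes kept its side under TMM scaling and without hypoxia-lactate 3.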

How the data were processed

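The authors deposited a table of raw read counts with a row for each Ensembl gene, made from Ion Proton reads of poly(A) RNA per the labels' protocols. BWA, HTSeq (no versions) and mm9 are named in the submitters' processing notes. For the annotation release and the strand setting the entry is "not given in the sources used here"; values of overlapping or antisense genes are therefore uncertain. The 5 counter rows were left out of totals: in the baseline libraries, reads with several alignments were 10.3% to 18.4% of all, those outside genes 13.7% to 18.9%, unaligned reads 2.09% to 3.09%, ambiguous ones 0.415% to 0.433% and those of low quality 0%.

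Counts were divided by each library's total over 37620 gene rows (CPM). Symbols, biotypes and union exon lengths came from GENCODE vM21, which is on another build (GRCm38), for 32897 rows; 4723 had none. Union lengths include rarely used exons and so lower CPM per kilobase. Promoter windows came from RefSeq (GRCm38.p6): 22862 of 27025 symbols had 1 start. Of 931 listed symbols 926 had a row; Ccl28, Flt3l, Lilrb4a, Sirpb1a and Tnfsf12 were not matched.

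Text names, from a rule, the 25 highest genes by CPM and per kilobase, up to 8 highest and the zero-count members of each list, and the 10 most variable genes at 100 CPM or more; a few were chosen after their values were seen. Some genes of the lists are counted but not reported here by name. The members and lists were chosen with earlier results of these data known. Alternatives were TMM scaling, other detection thresholds, mitochondrial genes left out, summed counts, RLE factors and leaving out each library. TMM factors and the coefficient of variation used edgeR 4.0.16 in R 4.3.3, checked on simulated counts. The rest used Python 3.11.15 with pandas 2.3.3.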

Additional observations from a re-analysis of the deposited data

How the results depend on the processing

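The count of detected genes, the share of reads in the 100 most abundant genes, the number of silent genes and the members detected over all surface and all secreted lists stayed within 1.5 times or 1 SD of the reported value under every alternative run. Ranking per kilobase kept 14 of the 25 most abundant genes. The coefficient of variation of 27.4% was 31.5% with no filter on low counts, and between 19.4% and 31.1% with 1 library left out. Of 378 named means, 1 moved by more than 1 SD under TMM scaling, that of Lamp1, whose SD was 7.31 CPM, to 2243 CPM. Single lists were less stable near the detection threshold: of 48, 4 moved by more than 1.5 times at 0.5 CPM, 11 at 5 CPM, 0 under TMM scaling and 2 when a library was left out, the neutrophil and dendritic cell markers. No paired analysis was possible because the results are levels within 1 group and come from no test. With 3 libraries an SD is itself imprecise, and levels below about 0.1 CPM rest on a few reads.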

Other observations

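Housekeeping and metabolic genes varied in level and in spread between libraries. The cytoskeletal list summed to 26497, 26178 and 24040 CPM and the elongation factor list to 19124, 12692 and 10664, highest in library 1. Lists in this section were chosen with earlier results known. Shares detected above the 53.5% of all protein-coding genes are therefore no result about them. Of 25 cytoskeletal genes all were detected, with Tmsb4x at 3684, 3440 and 2627 CPM, Actb at 2552, 3296 and 2811 and the actin-capping protein gene Capg at 1892, 1494 and 1850. Of 24 glycolysis genes 19 were detected, led per kilobase by Aldoa at 713 and Pkm at 682 CPM per kb. The 5 glycolysis genes without a read were Gapdhs, Pgk2 and Ldhc, known from sperm, Pgam2, from muscle, and Pklr, from liver and red cells. Gapdh was at 1354, 854 and 594 CPM, so this common reference gene differed more between the 3 libraries than Lamp1 (2228, 2219 and 2213) or Spi1 (491, 459 and 483).

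Of 25 iron storage and antioxidant genes 23 were detected, and the list summed to 46155, 29593 and 31293 CPM, highest in library 1. Haem oxygenase Hmox1, which releases iron from haem, was at 263 ± 34.5 CPM, catalase Cat at 631 ± 54.3 and the selenoenzyme Gpx1 at 787 ± 100. Of 22 genes listed as hypoxia-responsive, 20 were detected, against 53.5% of all protein-coding genes. Ldha was at 777, 693 and 557 CPM and Ndrg1 at 100, 126 and 129, while the carbonic anhydrase gene Car12 had 0, 3 and 2 reads. The list summed to 1365 to 1543 CPM, within or below the 1503 to 5561 CPM of the other 9 libraries. All 24 genes of DNA replication and mitosis were detected, with Pcna at 182 ± 38.0 and Top2a at 125 ± 55.8 CPM. Xist, transcribed from the inactive X chromosome, was at 49.5, 194 and 141 CPM, and the 4 Y-linked genes listed summed to 30.7, 53.0 and 54.5 CPM, so messages of both kinds were present in every library.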
